A study of Mus musculus with 7 samples.

Results

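Sat1, Ypel3, Nupr1, Ddit4 and Xpc are 5 genes that act on growth restraint and stress handling, and all of them were listed at higher levels in megakaryocyte progenitors from old mice than in those from young mice. They were picked by symbol from the authors' deposited comparison, which lists 769 gene models out of the 11778 that entered the authors' adjustment. The pick was made with the old and young means, their ratio and the standard error (SE) in view, so the difference by age in these 5 genes is a description and carries no test here.

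The cells were sorted from bone marrow as lineage-negative, cKit-positive, Sca1-negative, CD150-positive and CD41-positive, the phenotype of progenitors committed to megakaryocytes and platelets. Mice of both ages were offspring of Flt3-cre and mTmG parents; in mTmG, expression of the recombinase turns a cell and its descendants from Tomato to GFP, and the labels say that Tomato-positive or GFP-positive fractions were taken. The young group has 3 libraries from mice aged 3 months, and the old group has 4 libraries from mice whose source label says 18 to 20 months and whose growth protocol says 20 months. The strain label is C57BL/6 except for 1 old library, labelled C57BL/7. The young titles all begin alike, whereas the old titles begin in 2 ways (2 libraries of each), so age cannot be told apart from what the prefixes mark. No label says whether libraries came from separate mice. Cells of the sort were checked only in part, because the table lists 1 of 20 megakaryocyte markers, Selp (P-selectin), at 496 normalized counts in young and 2358 in old in the authors' deposited table.

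Cells restrain growth by several routes. Polyamines, small positively charged molecules needed for translation and division, are broken down after acetylation by the enzyme that Sat1 encodes, and the mTORC1 kinase complex, which drives protein synthesis, is restrained by the product of Ddit4 through the TSC complex. Nupr1 encodes a small stress-induced chromatin protein, Ypel3 a small protein whose human counterpart is induced by p53 and arrests growth when overexpressed, and Xpc the protein that finds helix-distorting DNA lesions for nucleotide excision repair. Megakaryocyte progenitors have to divide before their descendants stop dividing and become polyploid.

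The promoters of Nupr1 and Ypel3 are shown because they hold the 2 least common motifs matched among these genes, and those of Ddit4 and Sat1 are shown for comparison. Each window runs from 250 bases before to 50 bases after the start annotated in RefSeq on build GRCm38.p6, and is read on the gene's strand. For Nupr1 the GENCODE M21 gene starts further upstream, at 126630861 against 126625470 in RefSeq. Motif positions in Nupr1 hold for the RefSeq start only. Of the 5 genes, 4 matched an entry. Capitals mark an amino acid response element and an E-box in Nupr1, a forkhead element in Ypel3, a hypoxia core in Ddit4 and GC boxes in Sat1. The marked motifs were picked after the matches were seen.
Nupr1 (chr7:126625421-126625720, minus strand): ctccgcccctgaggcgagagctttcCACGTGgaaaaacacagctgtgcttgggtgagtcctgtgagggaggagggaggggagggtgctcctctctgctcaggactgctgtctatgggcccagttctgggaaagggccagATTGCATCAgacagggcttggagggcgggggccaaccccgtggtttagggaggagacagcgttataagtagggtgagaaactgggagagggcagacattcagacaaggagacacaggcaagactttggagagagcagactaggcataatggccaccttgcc
Ypel3 (chr7:126776713-126777012, plus strand): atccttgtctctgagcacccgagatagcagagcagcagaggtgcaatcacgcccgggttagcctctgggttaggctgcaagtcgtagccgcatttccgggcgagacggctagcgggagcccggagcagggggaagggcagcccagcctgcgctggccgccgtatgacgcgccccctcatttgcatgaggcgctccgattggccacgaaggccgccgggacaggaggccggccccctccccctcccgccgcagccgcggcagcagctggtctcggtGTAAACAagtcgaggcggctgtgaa
Ddit4 (chr10:59951721-59952020, minus strand): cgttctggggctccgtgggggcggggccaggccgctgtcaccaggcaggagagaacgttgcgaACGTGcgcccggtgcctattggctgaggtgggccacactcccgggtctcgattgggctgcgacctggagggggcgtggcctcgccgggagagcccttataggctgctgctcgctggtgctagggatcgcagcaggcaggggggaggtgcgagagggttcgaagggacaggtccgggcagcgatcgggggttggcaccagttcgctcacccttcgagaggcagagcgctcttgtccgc
Sat1 (chrX:155216400-155216699, minus strand): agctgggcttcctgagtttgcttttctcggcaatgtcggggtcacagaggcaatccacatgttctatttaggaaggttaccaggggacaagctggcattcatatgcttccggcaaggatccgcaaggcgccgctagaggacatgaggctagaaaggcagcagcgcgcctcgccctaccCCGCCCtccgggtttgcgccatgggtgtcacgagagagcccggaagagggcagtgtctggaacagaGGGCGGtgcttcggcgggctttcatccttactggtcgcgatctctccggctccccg

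The amino acid response element, TGATGCAAT on either strand, is a composite site for ATF4, the transcription factor of the integrated stress response, with a C/EBP partner. It was present in the Nupr1 window on the minus strand, from 111 to 103 bases before the start, and in 0.192% of all 32851 promoter windows of this length. A forkhead element, GTAAACA on either strand, the core letters bound by FOXO factors, began 25 bases after the start of Ypel3 and occurred in 3.65% of all windows. The Nupr1 window also held an E-box, CACGTG, which 7.15% of windows hold, and this palindrome contains the hypoxia core on both strands. The hypoxia core, ACGTG on either strand, was matched in Ddit4 as well, 187 bases before the start, and is present in 19.6% of windows. GC boxes, GGGCGG on either strand, were matched in Nupr1, Ddit4 and Sat1 and occur in 35.7% of windows. CCAAT boxes, ATTGG on either strand, were matched in Ypel3 and Ddit4 and occur in 37.4% of windows. No match was found in these 4 windows for the p53 half-site (8.36% of windows), the TATA box TATAAA on the gene's strand (8.32%), the cyclic AMP response element TGACGTCA (1.79%), the polyamine response element TATGACTAA (0.0974%) or the palindromic glucocorticoid response element (0.0639%). The 4 genes thus shared no motif of this set in all their windows, and GC content ran from 58.3% in Nupr1 to 69.0% in Ddit4 against a median of 52.7% over all windows.

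**Figure D1:**
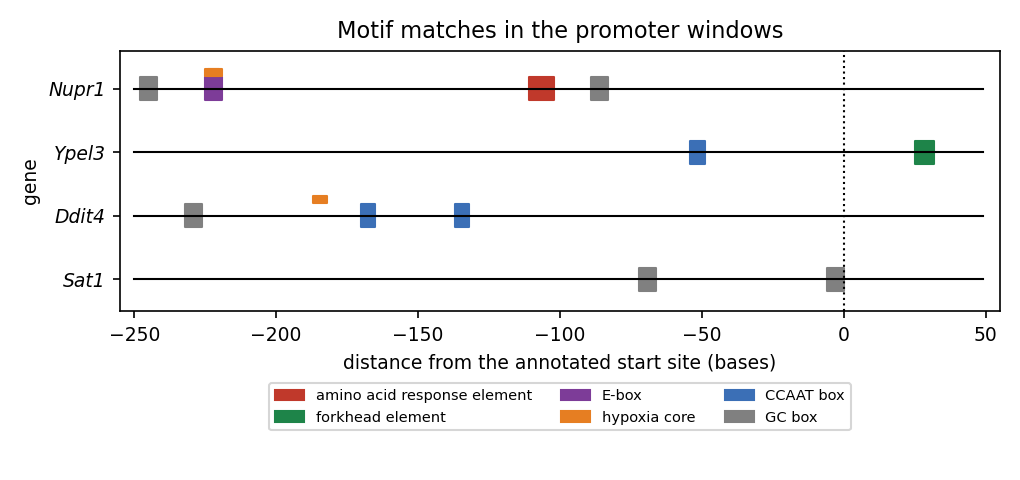
Motif matches in the promoter windows of 4 genes, by distance in bases from the start annotated in RefSeq (0, dotted line). Each coloured block is a match on either strand; the amino acid response element of Nupr1 lies from 111 to 103 bases before the start, and the forkhead element of Ypel3 begins 25 bases after it.

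All 5 genes were higher in old, by 1.81-fold for Xpc up to 7.40-fold for Nupr1. They passed the authors' adjusted p under 0.05 (DESeq), a limit passed by 4.13% of the gene models in the adjustment, 2.56% as higher and 1.57% as lower in old, and nothing is read from that share because the same values chose the genes. The deposited values are group means with no value per library, so the overlap of single libraries cannot be seen, and each SE is the authors' own. In these bulk samples, a change in the number of cells that express a gene and a change of RNA per cell cannot be told apart.

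Sat1, which encodes the rate-limiting acetyltransferase of polyamine breakdown, had a mean of 219 normalized counts in young and 698 in old in the authors' deposited table. The log2 fold change of Sat1 was 1.68 (SE 0.18), a 3.21-fold difference with a 95% interval of 2.51 to 4.10, in the authors' deposited table. Its adjusted p of 5.69e-17 (DESeq) ranked 2 in the authors' deposited table of 769 gene models, tied with that of Sepp1. The SE of Sat1 was among the smallest of the 302 gene models called higher, with 5 of them below it, while its fold change ranked 216 among them. The low adjusted p of Sat1 thus went with a small SE and not with a large fold change. This is a description, because the SE was in view when the genes were picked. Sat1 was also abundant for a higher call, with 53 of the 302 above its young mean.

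Sat1 lies on the X chromosome (155213132 to 155216449, minus strand, GRCm38), and the labels give no sex for the mice. Of 5 sex-linked genes looked for after the data were seen, Xist, Ddx3y, Eif2s3y, Kdm5d and Uty, 0 were in the authors' deposited table.

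Ypel3 had a mean of 83.0 normalized counts in young and 397 in old in the authors' deposited table. Its log2 fold change was 2.26 (SE 0.34), or 4.80-fold with a 95% interval of 3.03 to 7.61, and its adjusted p of 2.65e-08 (DESeq) ranked 10 in the authors' deposited table. The other 4 genes of the YPEL family, Ypel1, Ypel2, Ypel4 and Ypel5, were not listed, so they have no values here.

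Nupr1 showed the widest gap between the means, with 192 normalized counts in young and 1418 in old in the authors' deposited table. The log2 fold change of 2.89 came with an SE of 0.72, so the 7.40-fold difference has a 95% interval of 2.76 to 19.8 in the authors' deposited table. An adjusted p of 0.00562 (DESeq) placed Nupr1 at rank 142 of the authors' deposited table, well behind Sat1 despite the larger fold.

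Ddit4 was the scarcest of the 5, with a mean of 4.89 normalized counts in young and 28.4 in old in the authors' deposited table. Of the 302 higher calls, 243 had a higher young mean. The log2 fold change of Ddit4 was 2.57 (SE 0.79), 5.95-fold with a 95% interval of 2.02 to 17.5, and its adjusted p was 0.0369 (DESeq) in the authors' deposited table. Because of its low level the size depends on how small counts are treated, and the log2 ratio of the means was 1.37 after adding 10 to each.

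Xpc had the smallest difference, from 98.8 normalized counts in young to 179 in old in the authors' deposited table. The log2 fold change of Xpc was 0.85 (SE 0.23), 1.81-fold with a 95% interval of 1.32 to 2.46, and its adjusted p was 0.0114 (DESeq) in the authors' deposited table. Among the 302 higher calls its fold change ranked 286 and its SE ranked 22 from the smallest. The 95% interval of Xpc did not overlap those of Sat1, Ypel3 or Nupr1 and overlapped that of Ddit4, while the other 4 genes overlapped each other; the 5 estimates come from the same libraries, and their differences were not tested.

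**Figure D2:**
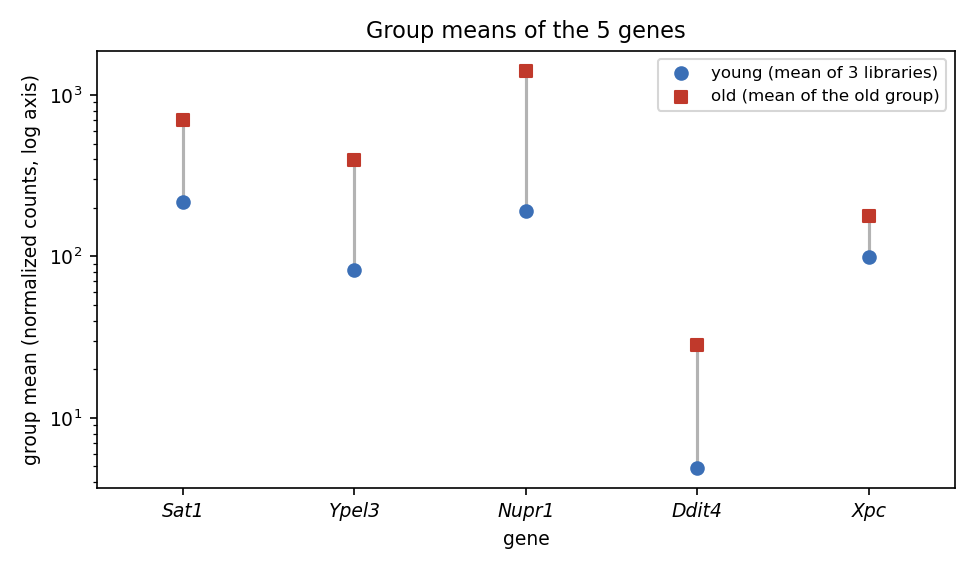
Young (circles) and old (squares) group means of the 5 genes, in normalized counts on a log axis, with grey lines joining the means of a gene. Every old mean lies above the young mean, from 98.8 to 179 in Xpc and from 192 to 1418 in Nupr1; the means carry no replicate spread.

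Per kilobase of exon (GENCODE M21, basic transcripts), Nupr1 had the highest young level at 231 normalized counts per kb, followed by Sat1 at 185, Ypel3 at 50.5, Xpc at 27.2 and Ddit4 at 2.79. The old order was the same, with 1710 normalized counts per kb for Nupr1, 590 for Sat1, 241 for Ypel3, 49.3 for Xpc and 16.2 for Ddit4. With the exons of all annotated transcripts, Sat1 (78.8 normalized counts per kb) and Nupr1 (76.3) changed places in young. Which neighbours in this order differ beyond their spread cannot be judged from group means. Which annotation the authors counted on is unknown.

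Among the higher calls, the 5 genes had a median fold change near that of all, and 4 of them lay above the median young level, with Ddit4 below it. Their median log2 fold change was 2.26, against 2.37 for the 302 higher calls in the authors' deposited table. Their median young mean was 98.8 normalized counts, while in the authors' deposited table the higher calls had 29.1 and the lower calls 2195. The median SE of the 5 was 0.34, against 0.62 for the higher calls, with Nupr1 and Ddit4 above that median and the other 3 below it.

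**Figure D3:**
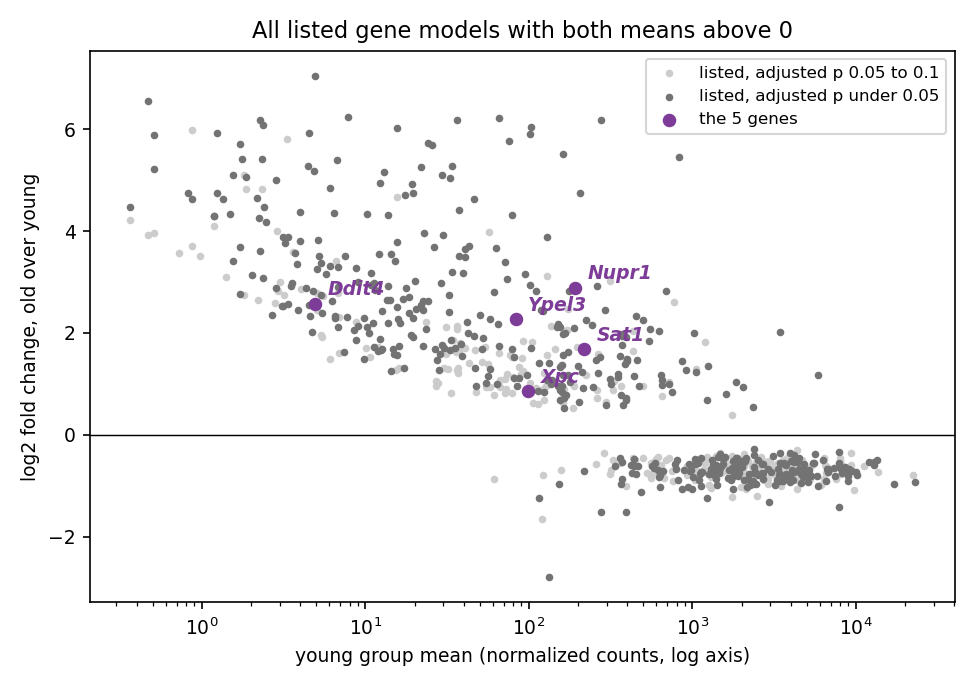
Log2 fold change (old over young) against the young group mean in normalized counts (log axis) for the listed gene models with both means above 0, with the 5 genes in purple. Sat1, Ypel3 and Nupr1 lie among higher calls at moderate young levels, Ddit4 (young mean 4.89) far to the left and Xpc (log2 fold change 0.85) near the lower edge of the higher calls.

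The old group also had higher levels of marker genes of other cell types, from lists chosen with earlier results of these data known. Of 24 granulocyte and monocyte markers, 16 passed as higher in old and 0 as lower, with a median log2 fold change of 5.61 and SEs from 0.46 to 1.68 in the authors' deposited table. The summed mean of the 18 listed markers was 5557 normalized counts in young and 98001 in old in the authors' deposited table, and none of them was at 0 in either group. Of 15 mast cell, basophil and eosinophil markers, 5 were listed, with summed means of 28.1 and 1453, and Prg3 alone was listed at 0 in young. In the authors' deposited table the summed means were 977 and 6431 for 2 listed of 14 erythroid markers, and 3.26 and 42.4 for 2 listed of 17 lymphoid and plasma cell markers. They were 36.6 and 458 for 2 listed of 12 stroma and endothelium markers, and 163 and 555 for 4 listed of 13 stem cell markers in the authors' deposited table. The part of these other cells in the higher levels of the 5 genes was not tested.

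Other genes of these pathways were listed and called at shares near those of all gene models. Over 10 pathway lists, 277 genes other than the 5 gave 23 listed gene models, of which 9 were called higher and 6 lower in the authors' deposited table. As gene models over the 277 genes, these are 8.30% listed, 3.25% higher and 2.17% lower. Of all gene models in the adjustment, 6.53% were listed, 2.56% higher and 1.57% lower. The units differ, since a gene such as Pik3ip1 can have 2 gene models, and how many of the 277 entered that adjustment is unknown. The called ones had a median log2 fold change of 2.12 when higher and -0.72 when lower, close to the 2.37 and -0.72 of all higher and lower calls in the authors' deposited table. Genes outside the table have no values here. Another scaling of old against young touches the lower calls: adding 0.23 (log2) to every fold change, which equalises the summed means of the listed gene models, left 0 of the 6 lower calls and all 9 higher calls.

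Around Sat1, the polyamine list had 26 genes, and both other called genes were lower in old. Odc1, ornithine decarboxylase, the rate-limiting enzyme of polyamine synthesis, had means of 1411 in young and 715 in old (log2 fold change -0.98, SE 0.30, adjusted p = 0.0348, DESeq) in the authors' deposited table. Dohh, which completes the hypusine residue that eIF5A receives from spermidine, had means of 2415 and 1448 (-0.74, SE 0.19, adjusted p = 0.0101, DESeq) in the authors' deposited table. Both kept a negative sign under the scalings tried but no longer passed. Recentring on the lower calls moves such calls to about 0 by construction, so the loss under that scaling was built in. Dohh overlaps the protein-coding gene Gm48551 in exons on the same strand, so their reads may be shared. The breakdown enzyme was thus listed higher, and a synthesis enzyme and the enzyme that finishes hypusine lower, while the other 23 genes of the list, including Srm, Sms, Smox and Paox, were not listed.

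Around Nupr1, the list of the integrated stress and unfolded protein response had 43 genes, and its 2 other called genes were lower. Psat1, an enzyme of serine synthesis and a target of ATF4, had means of 6525 in young and 3476 in old (log2 fold change -0.91, SE 0.26, adjusted p = 0.0192, DESeq) in the authors' deposited table. Hsp90b1, a chaperone of the endoplasmic reticulum, had means of 12896 and 8574 (-0.59, SE 0.18, adjusted p = 0.0361, DESeq) in the authors' deposited table. Its value turned to 0.035 after recentring on the lower calls, which moves such calls to about 0 by construction. Phgdh, which opens serine synthesis (9779 and 4580; -1.09, SE 0.39), and Asns, asparagine synthetase (3501 and 1730; -1.02, SE 0.35), were listed without passing in the authors' deposited table. Nupr1 was the only listed gene of this list with a higher value in old. Atf4, Ddit3, Trib3, Chac1 and the others of the list were not listed. The stress list thus held a higher Nupr1 beside amino acid synthesis genes with lower values. The promoter windows of Psat1, Phgdh and Asns are not given here. A link between these values and the amino acid response element matched in Nupr1 was not tested.

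Around Ddit4, the mTORC1 list had 54 genes and no other call. Mios, a subunit of GATOR2, was listed at 572 and 341 normalized counts (-0.75, SE 0.27, adjusted p = 0.0900, DESeq) in the authors' deposited table. It did not pass, and Tsc1, Tsc2, Mtor and the sestrin genes were not listed. Ddit4 stands in 4 of the lists, since hypoxia, p53 and glucocorticoids are all known to induce it. In the hypoxia list of 24 genes it was the only call, and the glucose transporter gene Slc2a3 was listed at 225 and 508 (1.18, SE 0.41, adjusted p = 0.0753, DESeq) in the authors' deposited table.

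In the glucocorticoid list of 12 genes, 3 besides Ddit4 were called, each higher in old, and nothing is read from the count of so short a list beside the 2.56% of all gene models called higher. Per1, a circadian clock repressor that glucocorticoids induce, had means of 6.51 in young and 33.0 in old (log2 fold change 2.32, SE 0.63) in the authors' deposited table. Tsc22d3, which encodes the glucocorticoid-induced leucine zipper protein, had means of 1025 and 4067 (1.99, SE 0.54) in the authors' deposited table. Cebpd, a C/EBP transcription factor, had means of 22.5 and 75.2 (1.74, SE 0.55) in the authors' deposited table. Cebpd overlaps an exon of Spidr on the other strand, and it is unknown whether the counting used strand. The other 8 genes of the list, among them Fkbp5, Zbtb16 and the receptor gene Nr3c1, were not listed.

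Growth arrest and quiescence genes, a list that holds Ypel3, also gave higher calls and no lower ones. Besides Ypel3, 4 gene models of 3 of its 24 genes passed as higher, where 2.56% of all gene models did. Nothing is read from that count, because the list is short and was chosen with earlier results of these data known. Ndn, necdin, a growth suppressor of the MAGE family, had means of 37.2 in young and 420 in old (log2 fold change 3.50, SE 0.74, adjusted p = 0.000394, DESeq) in the authors' deposited table. Txnip, the thioredoxin-interacting protein that limits glucose uptake, had means of 547 and 2292 (2.07, SE 0.65, adjusted p = 0.0400, DESeq) in the authors' deposited table. Pik3ip1, an inhibitor of PI3 kinase, was listed as 2 gene models, with log2 fold changes of 2.12 (SE 0.65) and 2.16 (SE 0.69) in the authors' deposited table. Foxo1, Foxo3, Foxo4, Cdkn1b and Cdkn1c were not listed.

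Around Xpc, the list of 48 nucleotide excision repair genes had calls in both directions. Pold4, the smallest subunit of DNA polymerase delta, was higher, with means of 377 and 561 (log2 fold change 0.58, SE 0.18, adjusted p = 0.0447, DESeq) in the authors' deposited table. It overlaps the protein-coding gene AC109138.7 in exons on the same strand, so their reads may be shared. Pole3, a histone-fold subunit of DNA polymerase epsilon, was lower, with means of 564 and 368 (-0.62, SE 0.19, adjusted p = 0.0302, DESeq) in the authors' deposited table. Its value was 0.0037 after recentring on the lower calls, which moves such calls to about 0 by construction. Ercc2, the XPD helicase of TFIIH, was listed at 585 and 403 without passing (-0.54, SE 0.18, adjusted p = 0.0579, DESeq) in the authors' deposited table. The damage sensor genes Ddb1 and Ddb2 were not listed.

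Sat1, Ypel3, Ddit4 and Xpc also stand in the list of 41 p53 targets and senescence genes, and the only other call there was lower. Aen, an exonuclease gene induced by p53, had means of 1453 in young and 891 in old (log2 fold change -0.70, SE 0.20, adjusted p = 0.0161, DESeq) in the authors' deposited table. Gadd45g, a stress-induced growth arrest gene, was listed at 197 and 647 (1.71, SE 0.58, adjusted p = 0.0645, DESeq) in the authors' deposited table without passing. Cdkn1a, Mdm2, Ccng1, Bax and the cell cycle inhibitor genes Cdkn2a and Cdkn2b were not listed. In the immediate early and dissociation stress list of 21 genes, which holds none of the 5, Jun, a subunit of AP-1, was the 1 call (94.3 to 839, 3.15, SE 0.80), and Ier3 was listed without passing (1.62, SE 0.56) in the authors' deposited table.

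**Figure D4:**
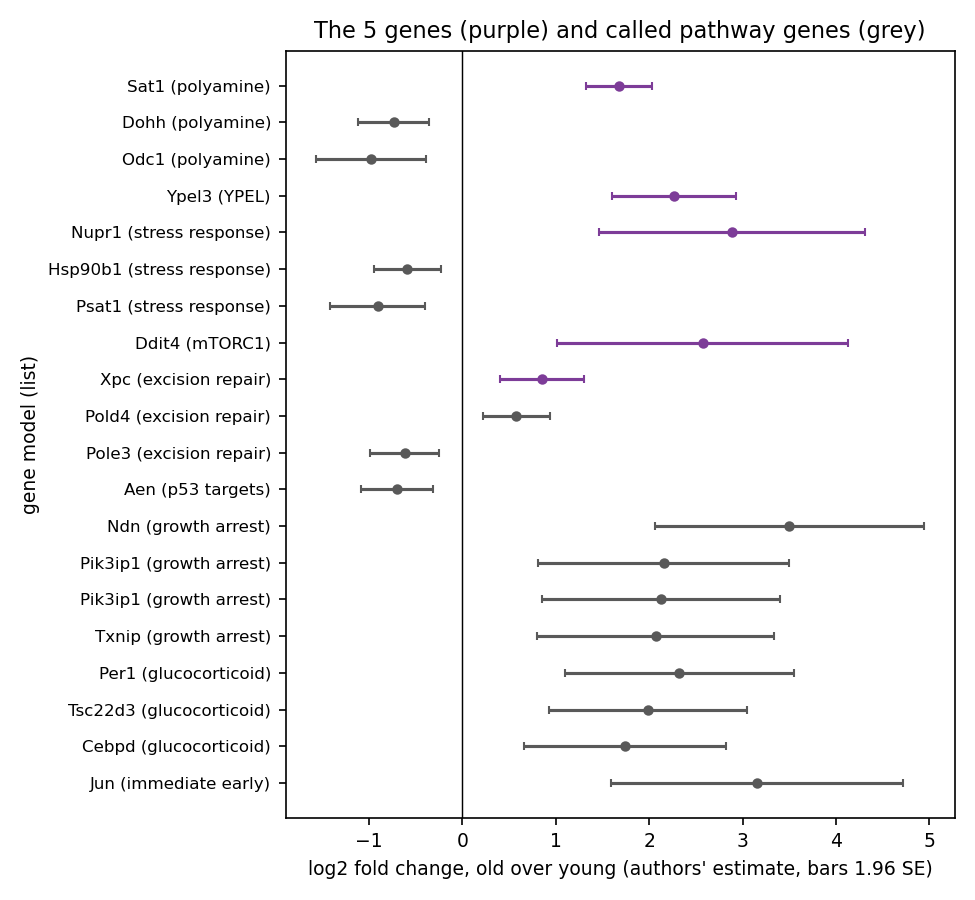
Log2 fold changes (old over young) with bars of 1.96 SE for the 5 genes in purple and the called genes of the 10 pathway lists in grey, each shown under the list that holds it earliest. The growth arrest and glucocorticoid genes lie to the right of 0, from 1.74 in Cebpd to 3.50 in Ndn, while Odc1 (-0.98), Dohh (-0.74), Psat1 (-0.91), Hsp90b1 (-0.59), Pole3 (-0.62) and Aen (-0.70) lie to the left.

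Nupr1 and Ypel3 are near neighbours on chromosome 7. In the GRCm38 annotation Nupr1 lies at 126623249 to 126630861 on the minus strand and Ypel3 at 126776955 to 126780514 on the plus strand, 146 kb apart. None of the 7 protein-coding genes between them was listed. Within 500 kb on either side, 7 of 56 other protein-coding genes were listed, with 3 called higher (Apobr, Zg16 and AI467606) and 2 lower (Ino80e and Tufm). Of all gene models in the adjustment, 2.56% were called higher and 1.57% lower, and nothing is read from so few calls. Ddit4 lies on chromosome 10 (59949669 to 59951834, minus strand) and Xpc on chromosome 6 (91489305 to 91515888, minus strand). The Xpc start is 40 bases from Lsm3 on the opposite strand, and Lsm3 was not listed. None of the 5 overlaps another gene in its exons.

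The listed gene models most like each of the 5, by distance between their young and old means on the log2(mean + 1) scale, over 2 group means, were taken as its nearest neighbours in pattern. For Sat1 these were Gadd45g (distance 0.18), Igtp (0.24) and Ppp1r18 (0.30), and Igtp overlaps the listed Irgm2 in exons on the same strand. For Ypel3 they were Gm15441 (0.31), Eltd1 (0.35) and Ogt (0.40), and Gm15441 overlaps Txnip in exons on the opposite strand, so their reads may be shared. For Nupr1 they were Lcp1 (0.24), Krt18 (0.46) and a gene model of Pik3ip1 (0.52). For Ddit4 they were Slc37a2 (0.11), Pygm (0.11) and Erp27 (0.15). For Xpc they were P2rx4 (0.03), Hyal1 (0.17) and Pstpip1 (0.19), and Hyal1 overlaps Hyal3 and Naa80 in exons on the same strand. Each gene had a different set of 3, since the 5 lie at different levels. A likeness over 2 means describes level and fold only.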

How the data were processed

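RNA from sorted bone marrow megakaryocyte progenitors of 3 young and 4 old mouse libraries was sequenced after Trizol extraction and NEBNext Ultra library preparation, per the labels' protocols. The submitters' processing notes name Bowtie2, STAR and DESeq, and mm10 as the build, without versions or roles. Counting method, strand setting and annotation are not stated there.

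The authors deposited 1 table of their comparison. Per the file headers it holds mean normalized counts for young, for old and for 14 samples, some of them outside this series, and every mean is a size-scaled signal pooled over its libraries. It also holds the authors' log2 fold change (old over young), its SE and test score, and p-values and adjusted p-values, per the file headers. The score equalled the fold change divided by its SE within 0.001 in all 769 gene models. The table stops at an adjusted p of 0.0993, so genes outside it have no values here. The size of the authors' adjustment, 11778, was recovered from the deposited p-values. Old libraries were matched to the old mean by age alone. Depth per library is unknown, so no counting interval was computed.

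No model was fitted. Values were copied, intervals are the fold change with 1.96 SE on each side, and calls are the authors' adjusted p under 0.05. The 5 genes, the 10 pathway lists and the 7 marker lists were chosen with earlier results of these data known. Genes named are the 5, the called genes of the pathway lists, and the 3 listed gene models nearest to each of the 5 by Euclidean distance over log2(mean + 1); other genes were named after their values were seen. Promoters came from RefSeq (GRCm38.p6) and gene positions from GENCODE M21, both of the build named mm10. P-values measure the spread between libraries, which may be technical. Whether the authors' estimate of that spread, and so each SE, also drew on the samples outside this series is unknown. Code was checked on simulated data (Python 3.11.15, pandas 2.3.3, scipy 1.17.1).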

Additional observations from a re-analysis of the deposited data

Results flagged for a closer look

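In 4 of the 5 genes the mean over 14 samples, which includes samples outside this series, lay above both group means in the authors' deposited table. It was 808 normalized counts for Ypel3 (83.0 young, 397 old), 2546 for Nupr1 (192 and 1418), 65.4 for Ddit4 (4.89 and 28.4) and 441 for Xpc (98.8 and 179) in the authors' deposited table. For Sat1 the mean over 14 samples, 694, lay between the young mean and the old mean of 698 in the authors' deposited table. With 3 young and any number from 1 to 4 of old libraries behind the means, the remaining samples averaged more than the old group for all 5 genes, Sat1 included at 836 to 895 normalized counts. A 14-sample mean above both groups was common, found in 211 of the 302 higher calls (69.9%) and 2 of the 185 lower calls, so it is not particular to these genes. The identity of the other samples is unknown here.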

How the results depend on the processing

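Every one of the 5 genes stayed higher in old under the other estimates, pseudocounts and scalings tried, which could not have come out otherwise. An equal pseudocount cannot change the sign of a ratio, and both scalings only add to the fold change. Of 25 such values, 24 stayed within 1 SE or kept their call, and Ddit4 moved to 1.37 with a pseudocount of 10. At an adjusted p limit of 0.01, which 1.18% of gene models passed as higher, 3 of the 5 were called (Sat1, Ypel3 and Nupr1), and of the other pathway genes 2 were called higher and 0 lower. At the limit of 0.1, all 5 were listed, with 13 other pathway genes higher and 10 lower. Requiring a size of 1 or more on the log2 scale left 4 of the 5 (without Xpc), 8 of the 9 higher and 0 of the 6 lower pathway calls, and a mean of at least 50 left 4 of the 5 (without Ddit4). Recentring on the lower calls added 0.62 and equal totals added 0.23 to every log2 fold change. Of the 6 lower pathway calls, 0 passed under either, and Hsp90b1 and Pole3 turned to 0.035 and 0.0037 under the former. Recentring sets the SE-weighted mean of the lower calls to 0. The loss of lower calls under it was thus built in, and nothing is read from it. A scaling in the other direction would end the call of Ddit4 at a shift of 0.13, of Xpc at 0.15, of Nupr1 at 0.65, of Sat1 at 1.12 and of Ypel3 at 1.22. Over all listed gene models, higher and lower calls were 302 and 185, 434 and 1 after recentring, 409 and 16 with equal totals, 139 and 41 at a limit of 0.01, and 198 and 185 at a mean of at least 50.

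No paired analysis was possible because the table holds group means and no value per library; for the same reason leaving out single libraries and other count models were not run.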
